A study of Mus musculus with 8 samples.

Results

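The genes described here encode proteins that hold fatty acids and acyl-CoA esters inside the cell, and enzymes that split those esters. They are the 10 genes of a list set by name: the fatty acid binding proteins Fabp3, Fabp4 and Fabp5, the acyl-CoA binding protein Dbi, and the acyl-CoA thioesterases Acot1, Acot2, Acot7, Acot9, Acot11 and Acot13. Each of the 10 had 1 entry among the 47706 genes listed, and all 10 passed the filter on low counts that left 16734 genes for testing. RNA was sequenced from 4 samples of mouse calvarial osteoblasts treated with PTH and 4 treated with vehicle. Calvarial osteoblasts are bone-forming cells grown from the skullcap of newborn mice. Both groups were differentiated for 7 days, serum-starved and then exposed to hormone or vehicle for 24 hours. The labels call the differentiation adipogenic, while the study's methods describe osteogenic medium with ascorbic acid and β-glycerol phosphate, and the strain is not stated for these cultures, although C57BL/6 is named for the study's mice. Nothing says that the samples came from separate mice or cultures, so p-values measure only the spread between these samples, which may be technical.

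Fatty acids are poorly soluble in water, and inside cells they are carried by small binding proteins with a barrel-shaped pocket, the FABPs. Once a fatty acid is joined to coenzyme A by an acyl-CoA synthetase, the product is bound by DBI, also called ACBP, and can enter oxidation, membrane lipids or storage fat. Acyl-CoA thioesterases run the opposite step and release the free fatty acid and coenzyme A, in the cytosol or in mitochondria according to the enzyme. Osteoblasts take up and oxidize fatty acids, and PTH acts on them through its receptor PTH1R.

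The 8 samples held between 33605610 and 56090654 counts. Tnfsf11, which encodes the osteoclast-promoting cytokine RANKL and is a classical PTH target, was at 1.42 ± 0.365 CPM (counts scaled to a common library size, SD, n = 4) with vehicle and at 128 ± 20.0 CPM with PTH (log2 fold change 6.49). Pth1r itself fell by 0.70 on the log2 scale. All 10 osteoblast markers were detected, led by Col1a1 at a mean of 44362 CPM with vehicle. Adipocyte markers were detected too, but their summed level was only 130 to 148 CPM with vehicle and 121 to 134 CPM with PTH, and Cebpa accounted for 75.6 of it on average with vehicle. All 10 macrophage markers were present, with sums of 1005 to 1634 CPM with vehicle and 1576 to 2019 CPM with PTH, most of it from Lyz2. The first principal component of all genes held 62.9% of the variance and separated the treatments, and the second, with 10.2%, had PTH sample 1 and PTH sample 2 at its opposite ends.

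Among the 10 genes, changes called with PTH went up in 3 of the binding proteins and in both directions among the thioesterases. Of the 4 binding proteins, Fabp3, Fabp5 and Dbi rose, by 1.42-fold to 1.55-fold in mean CPM, and none fell, although the call of Fabp3 was lost with an offset for transcript length. Of the 6 thioesterases, Acot2 and Acot11 fell, Acot13 rose, and Acot1, Acot7 and Acot9 did not pass the test. The call of Acot13, the only thioesterase called higher, was also lost with that offset and held in only 6 of 16 alternative settings. In all, 4 members were higher, 2 were lower and 4 were not called by edgeR's quasi-likelihood test at an adjusted p under 0.05. Among all genes tested 45.8% were called, 23.3% higher and 22.5% lower, so a count of 6 in 10 is not far from that background. The median log2 fold change was 0.56 over the binding proteins and -0.07 over the thioesterases, beside -0.00081 over all genes tested. All 4 binding proteins have transcripts of 500 to 1000 bases, and the median of all genes tested in that length class was 0.30. The largest change of any member was -0.90 on the log2 scale, and the median absolute change of the genes called was 0.58.

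**Figure D1:**
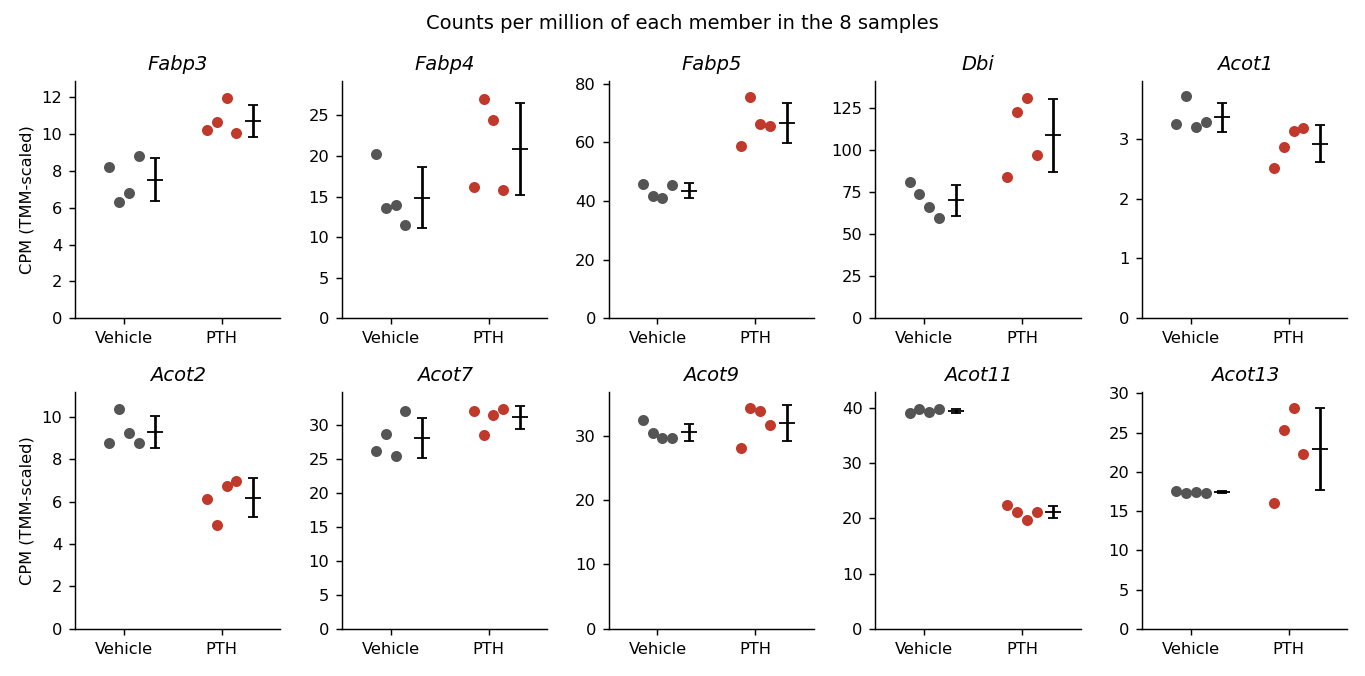
Library-scaled counts (CPM, by TMM) of the 10 members in each of the 4 vehicle (grey) and 4 PTH (red) samples, left to right by sample number, with the mean ± SD at the right of each group. The groups do not overlap for Fabp3, Fabp5, Dbi, Acot1, Acot2 and Acot11, and Acot13 with PTH runs from 16.0 to 28.1 CPM while its vehicle samples lie between 17.4 and 17.6 CPM.

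The sequences that set Acot1 and Acot2 apart are shown first, because these neighbouring genes share most of their coding sequence. Both were lower with PTH, but only Acot2 was called. ACOT2 works in the mitochondrial matrix and ACOT1 in the cytosol. Acot2 (chr12:83987861-83993873, plus strand, GRCm38, GENCODE M21) has 1362 coding bases and Acot1 (chr12:84009490-84018371, plus strand) has 1260. Over 1239 aligned coding bases they were 95.2% identical, with 59 bases that differ. Acot2 starts with 123 coding bases, or 41 residues, that have no counterpart in the coding sequence of Acot1. That lead (chr12:83987902-83988024) is followed by the first 60 bases of the part that both genes share (chr12:83988025-83988084 in Acot2, chr12:84009510-84009569 in Acot1), in which capitals mark the 10 bases that differ.
Acot2 lead: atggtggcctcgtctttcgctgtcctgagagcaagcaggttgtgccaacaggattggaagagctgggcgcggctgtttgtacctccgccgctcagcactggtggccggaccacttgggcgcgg
Acot2 shared part: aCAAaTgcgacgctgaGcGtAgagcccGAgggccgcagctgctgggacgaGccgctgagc
Acot1 shared part: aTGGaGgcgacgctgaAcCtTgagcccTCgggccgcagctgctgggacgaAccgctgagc
Of all windows of 150 bases in the Acot1 transcript, 9.85% were identical to a stretch of Acot2, and 10.2% of those of Acot2 to a stretch of Acot1. A read from these windows could have been counted for either gene, so the split of counts between them is uncertain to that extent.

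Compared per length of transcript, Dbi was the most abundant member. With vehicle its mean was 124 CPM per kilobase, followed by Fabp5 at 44.1, Acot13 at 24.2, Acot7 at 18.7, Acot9 at 17.4, Fabp4 at 16.6, Fabp3 at 9.15, Acot11 at 6.93, Acot2 at 4.23 and Acot1 at 1.48 CPM per kilobase. In this order only the neighbours Acot7 and Acot9, and Acot9 and Fabp4, overlapped between samples. With PTH the order by mean level was the same except that Fabp4, at 23.3 CPM per kilobase, stood above Acot7 and Acot9. There Acot13 and Fabp4, Fabp4 and Acot7, and Acot7 and Acot9 overlapped. Dbi was thus above every fatty acid binding protein in both treatments, and Fabp5 was the most abundant of the FABPs.

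**Figure D2:**
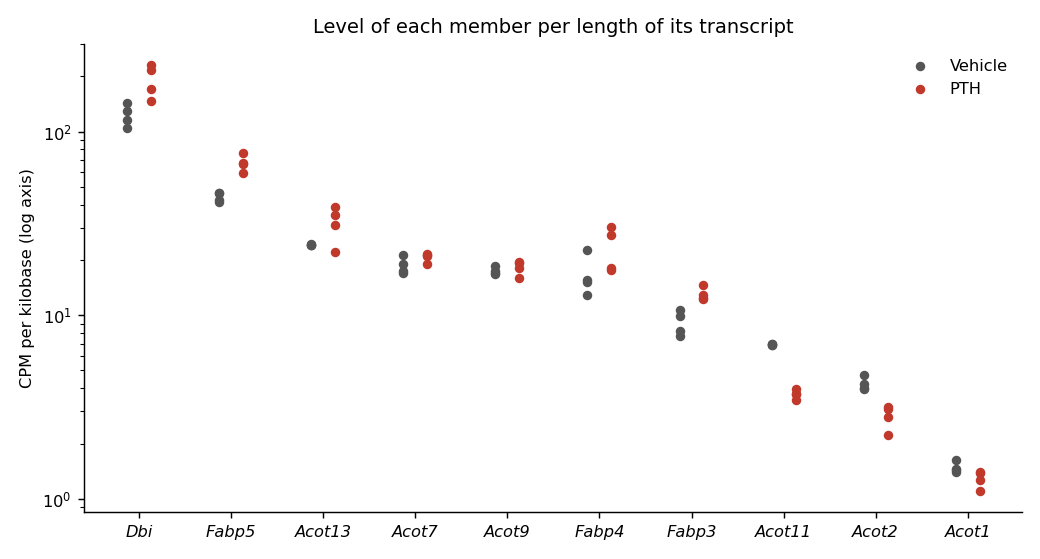
Level of each member in every sample as CPM per kilobase of transcript, on a log axis, ordered by the vehicle mean from Dbi (124) to Acot1 (1.48). Vehicle samples are grey and PTH samples are red, and Acot11 and Acot2 are lower with PTH while Dbi, Fabp5 and Fabp3 are higher.

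Fabp5 (chr3:10012548-10016607, plus strand), the epidermal-type FABP that is also found in macrophages and fat tissue, was at 45.9, 41.8, 40.9 and 45.5 CPM in vehicle samples 1 to 4. With PTH it was at 58.8, 75.3, 66.3 and 65.4 CPM. Every PTH sample lay above every vehicle sample. The log2 fold change was 0.61 ± 0.0813 (SE) with an adjusted p of 7.15e-05 by edgeR. Fabp5 has processed pseudogenes of like sequence: Gm6166, 98.3% identical over 409 bases, held 91 to 226 counts per sample, and Gm14328 held 12 to 22, against 1822 to 3014 for Fabp5.

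Fabp3 (chr4:130308595-130315463, plus strand), the heart-type FABP typical of muscle that oxidizes fatty acids, was the least abundant of the FABPs. It was at 8.19, 6.31, 6.78 and 8.83 CPM with vehicle and at 10.2, 10.7, 11.98 and 10.1 CPM with PTH. The groups did not overlap. Fabp3 rose by 0.51 ± 0.126 (SE) on the log2 scale, with an adjusted p of 0.00581 by edgeR. Its final exon overlaps the gene Zcchc17 on the other strand, and as the strand setting of the counting is not given in the sources used here, reads from that overlap cannot be told apart. Its processed pseudogene Fabp3-ps1 held at most 9 counts.

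Fabp4 (chr3:10204088-10208576, minus strand) lies on the same chromosome as Fabp5 and encodes the adipocyte-type FABP, which macrophages and some endothelial cells also make. Relative to its mean, it was the member whose vehicle samples spread most widely. The vehicle samples were at 20.3, 13.6, 14.0 and 11.5 CPM, and the PTH samples at 16.2, 27.1, 24.4 and 15.9 CPM. PTH samples 2 and 3 stood above every vehicle sample, and the other two lay below vehicle sample 1. The log2 fold change was 0.49 with a 95% interval of 0.05 to 0.93, an unadjusted p of 0.0326 and an adjusted p of 0.0671 by edgeR, so the difference did not pass the threshold. DESeq2 gave an adjusted p of 0.0372, and leaving out vehicle sample 1, PTH sample 1 or PTH sample 4 gave 0.0132, 0.0266 and 0.0363 by edgeR. Of the 10 adipocyte markers, vehicle sample 1 was the highest vehicle sample for 5 (Adipoq, Plin1, Cfd, Cidec and Lep) and the lowest for Pparg, and PTH samples 2 and 3 were the highest PTH samples for 7, but not for Lep, Pnpla2 and Cebpa. Adipoq was not called, with values of 3.48 ± 0.775 and 3.86 ± 0.919 CPM for Adipoq with vehicle and PTH. The part of these genes' source in the Fabp4 values was not tested.

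Dbi (chr1:120113280-120121078, minus strand) encodes the acyl-CoA binding protein, which holds long-chain acyl-CoA esters in solution and, as diazepam binding inhibitor, is also the source of a neuropeptide. The vehicle samples were at 81.3, 73.7, 66.2 and 59.8 CPM and the PTH samples at 84.0, 123, 131 and 97.3 CPM. The groups did not overlap, although PTH sample 1 exceeded vehicle sample 1 by little. Dbi rose by 0.63 ± 0.136 (SE) on the log2 scale (adjusted p = 0.00245, edgeR).

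Macrophages also express Fabp4 and Fabp5. Of the 10 macrophage markers 2 rose, Lyz2 by 0.63 ± 0.142 (SE) and Cd14 by 0.50 ± 0.171 on the log2 scale. None fell, 8 were not called and none was at 0, beside 23.3% higher and 22.5% lower among all genes tested. Their median log2 fold change was 0.33, beside -0.00081 over all genes tested. All 10 values lay above 0, from 0.19 for Csf1r to 0.63 for Lyz2. The summed level overlapped between treatments (1576 CPM in the lowest PTH sample and 1634 CPM in the highest vehicle sample, exact two-sided permutation p = 0.0571). Endothelial markers summed to 6.41 to 7.26 CPM with vehicle and 6.03 to 7.65 CPM with PTH, with 7 of 8 detected and Emcn at 0. A part of macrophages or endothelial cells in the levels of Fabp4 and Fabp5 was not tested. In bulk RNA a change in the number of cells of a type and a change in RNA per cell cannot be told apart.

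Acot11 (chr4:106744555-106804998, minus strand) had the largest difference of the 10 genes. It encodes a long-chain acyl-CoA thioesterase with a lipid-binding START domain, first described as induced in brown fat by cold. The vehicle samples were at 39.0, 39.8, 39.1 and 39.7 CPM, a spread of less than 1 CPM, and the PTH samples at 22.4, 21.2, 19.8 and 21.2 CPM. All PTH samples lay far below all vehicle samples. Acot11 fell by 0.90 on the log2 scale (SE 0.0655, adjusted p = 3.60e-07, edgeR), to 0.537 of its vehicle mean. Only 5.97% of all genes tested had a lower log2 fold change. The gene Fam151a, which overlaps it, held at most 4 counts.

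Acot2 fell as well. It was at 8.75, 10.4, 9.24 and 8.79 CPM with vehicle and at 6.11, 4.90, 6.73 and 6.97 CPM with PTH, without overlap. The log2 fold change was -0.59 ± 0.130 (SE) with an adjusted p of 0.00293 by edgeR. Its cytosolic neighbour Acot1 was lower in abundance, at 3.26, 3.72, 3.192 and 3.29 CPM with vehicle and 2.52, 2.86, 3.13 and 3.185 CPM with PTH. The groups for Acot1 were just apart, but its log2 fold change of -0.20 (95% interval -0.56 to 0.15) did not pass the test (adjusted p = 0.333, edgeR). With the counts of the near-identical genes summed, the change was -0.47 (adjusted p = 0.00457), a sum to which Acot2 gave most of the counts.

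The 3 other thioesterases are, like ACOT11, of the hotdog-fold type. Acot13, also known as Them2, is found at mitochondria and prefers long-chain acyl-CoAs. Its vehicle samples agreed closely, at 17.6, 17.4, 17.5 and 17.4 CPM, whereas its PTH samples were at 16.0, 25.4, 28.1 and 22.3 CPM. Thus 3 PTH samples stood above the vehicle range and PTH sample 1 stood below it. The log2 fold change was 0.39 ± 0.140 (SE) with an adjusted p of 0.0377 by edgeR. This call was lost when any 1 sample other than PTH sample 1 was left out, with values between 0.27 and 0.40 and adjusted p between 0.063 and 0.124, while without PTH sample 1 it was 0.53 (adjusted p = 0.000431).

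Acot7, a cytosolic enzyme best known from brain, was at 26.2, 28.7, 25.5 and 32.03 CPM with vehicle and at 32.1, 28.6, 31.6 and 32.4 CPM with PTH. Acot9, a mitochondrial enzyme whose gene is on the X chromosome, was at 32.4, 30.4, 29.6 and 29.6 CPM with vehicle and at 28.1, 34.2, 33.8 and 31.6 CPM with PTH. The groups overlapped for both. The log2 fold change was 0.15 for Acot7 (95% interval -0.04 to 0.33, adjusted p = 0.177) and 0.06 for Acot9 (95% interval -0.11 to 0.23, adjusted p = 0.535), by edgeR.

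In all, 6 of the 10 members had no overlap between the treatments, beside 43% of all genes tested. Each of these 6 reached 0.0286, the smallest two-sided p that the 70 assignments of an exact permutation test on log2(CPM + 0.1) allow. Any gene without overlap has this p, so it restates the absence of overlap. Acot1 is among the 6, with an adjusted p of 0.333 by edgeR.

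**Figure D3:**
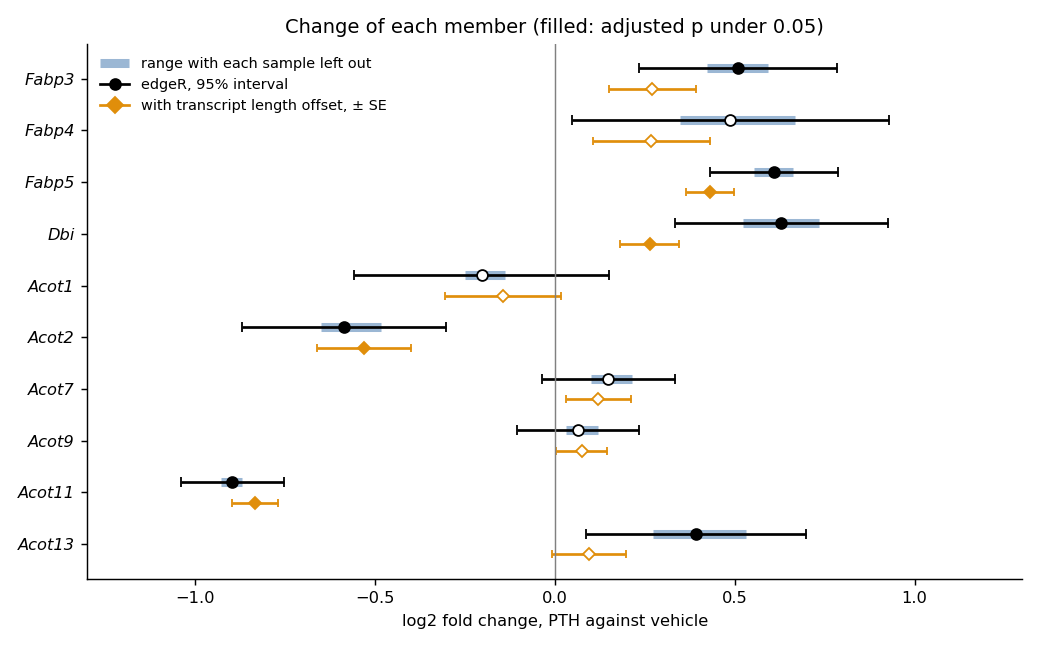
Log2 fold change, PTH against vehicle, of each member. Black circles are the edgeR estimates with 95% intervals, blue bars the range over the 8 fits that each leave out 1 sample, and orange diamonds the estimates with an offset for transcript length (± SE). Symbols are filled where the adjusted p was under 0.05. Acot11 and Acot2 stay below 0 in all 3, Fabp5 and Dbi above 0, and the estimates for Fabp3 and Acot13 are unfilled with the offset (0.27 and 0.09).

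The length of the transcript moved with the outcome across all genes, and the members that rose are short. Fabp3, Fabp4, Fabp5, Dbi and Acot13 have transcripts of 823, 896, 987, 569 and 721 bases. Among the 1258 genes tested with transcripts of 500 to 1000 bases, the median log2 fold change was 0.30, 35.1% were higher and 3.58% were lower. In the class of 2000 to 4000 bases, which holds Acot1 and Acot2, the median was -0.07. The short class was not raised evenly over the PTH samples: its median deviation from each gene's mean was -0.02, 0.26, 0.30 and 0.07 on the log2 scale in PTH samples 1 to 4, and between -0.17 and -0.06 in the vehicle samples. PTH samples 2 and 3 were also the highest PTH samples for all 5 short members, Fabp3, Fabp4, Fabp5, Dbi and Acot13. Within their length class, Fabp5 and Dbi were above 75.4% and 76.7% of the genes, Fabp3 and Fabp4 above 68.5% and 66.9%, and Acot13 above 58.0%.

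When edgeR was given an offset that removes the length trend, Fabp5 and Dbi remained called, at 0.43 ± 0.0669 (SE, adjusted p = 0.000201) and 0.26 ± 0.0825 (adjusted p = 0.0205). Fabp3 then had a log2 fold change of 0.27 (adjusted p = 0.087), Fabp4 of 0.27 (adjusted p = 0.208) and Acot13 of 0.09 (adjusted p = 0.49). Thus 2 members instead of 4 were called higher with the offset. Acot11 and Acot2 had values of -0.83 and -0.53 and stayed called. What sets the trend itself was not tested.

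**Figure D4:**
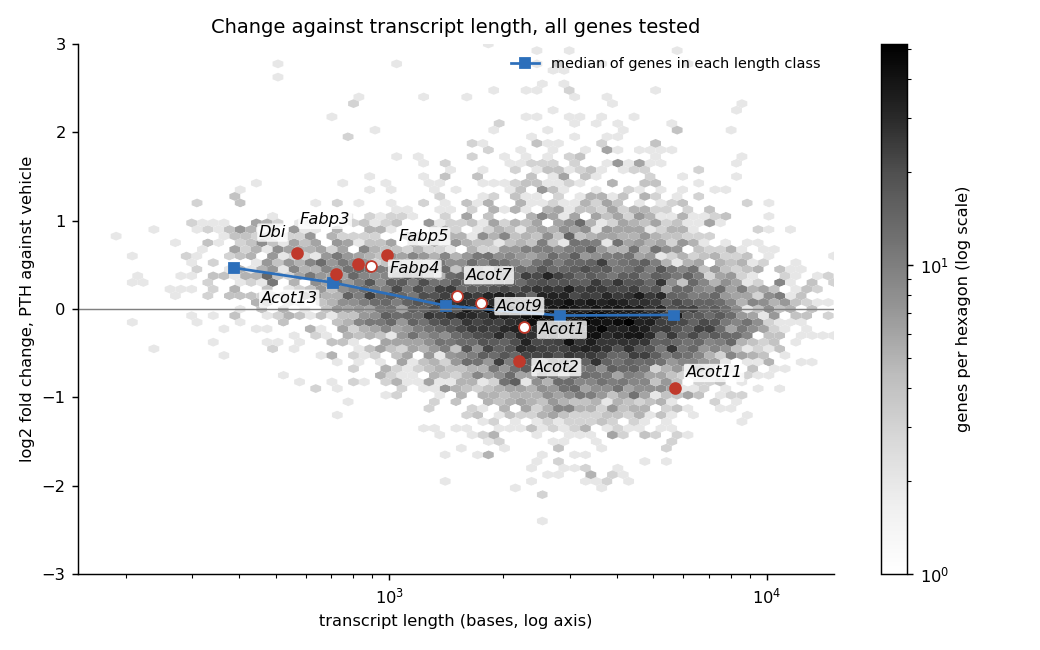
Log2 fold change, PTH against vehicle, against transcript length (log axis) for the 16249 tested genes with an annotated length (253 beyond the vertical axis are not shown), drawn as hexagons shaded by the number of genes, with the 10 members as circles (filled red where called) and the medians of 5 length classes as blue squares. The medians go from 0.47 for transcripts of 300 to 500 bases to -0.07 above 2000 bases, and Dbi, Fabp3, Fabp4, Fabp5 and Acot13 lie in the short classes, at or above the line.

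Ratios within a sample compare related members, but carry the length trend where transcripts differ in length, as with Acot13 (721 bases) and Acot11 (5689 bases). Over 5 pairs, the log2 ratio of Acot13 to Acot11 went from -1.17 ± 0.0235 (SD, n = 4) with vehicle to 0.09 ± 0.421 with PTH, a difference of 1.26 (exact permutation p = 0.0286, 0.0714 adjusted over the 5 pairs). That of Acot1 to Acot2 went from -1.44 ± 0.0532 to -1.05 ± 0.206, a difference of 0.39 with the same p-values. In both pairs all PTH samples lay above all vehicle samples, and the adjusted p cannot be lower with 2 pairs of 5 at the smallest p. Ratios of Fabp4 to Fabp5, Fabp3 to Fabp5 and Acot9 to Acot7 differed between treatments by -0.13, -0.09 and -0.09, less than the SD within either treatment (adjusted exact p = 0.629 for each).

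Promoters were examined for letters that PTH signalling, through cAMP and CREB, and the PPAR family of lipid sensors are known to use. RefSeq promoters, from 250 bases before to 50 bases after a start (GRCm38.p6), were found for 7 of the 10 members, in 9 windows, and Fabp4, Fabp5 and Acot13 had none in the table. The full cAMP response element TGACGTCA occurred in 1.79% of 32851 promoters and in no window of a member, on either strand. Its core TGACG, which the full element contains, occurred in 20.8% of all promoters. Among the members it occurred once each in those of Fabp3 and Acot2, starting at -149 and -117 from their RefSeq starts. It also occurred once in 1 window of Dbi, starting at -187, and in no other window of a member. The RefSeq start of Fabp3 is at position 130308738, downstream of its first GENCODE start at 130308595. The direct repeat AGGTCANAGGTCA, found in 0.0396% of promoters, and the single AGGTCA it is made of, found in 16.3%, occurred in none of the 9. Printed are the promoters of Fabp3, which rose, and Acot2, which fell, up to the first annotated start on the gene's own strand. They lie at chr4:130308488-130308594 and chr12:83987611-83987860, with the core in capitals (CGTCA where it is on the other strand).
Fabp3 promoter: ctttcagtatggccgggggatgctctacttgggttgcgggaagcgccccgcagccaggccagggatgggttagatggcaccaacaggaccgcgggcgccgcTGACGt
Acot2 promoter: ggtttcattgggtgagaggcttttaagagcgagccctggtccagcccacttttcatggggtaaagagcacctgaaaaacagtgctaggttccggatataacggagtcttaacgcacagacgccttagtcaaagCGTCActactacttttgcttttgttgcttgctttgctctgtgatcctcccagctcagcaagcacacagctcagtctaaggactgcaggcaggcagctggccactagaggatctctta
The core thus occurred before Fabp3 and Dbi, which rose, and before Acot2, which fell, and the letters alone show no binding.

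Other proteins of the same fold gave few measurable genes. Of 12 further lipocalin-type carriers, 3 passed the filter, and Fabp2, Fabp6, Fabp9, Fabp12 and Rbp2 were at 0 in every sample, so Fabp3, Fabp4 and Fabp5 were the FABPs with enough counts to test. Crabp2, which delivers retinoic acid to its nuclear receptor, was at 8.27 ± 0.888 CPM (SD, n = 4) with vehicle and rose by 1.04 on the log2 scale to 17.0 ± 2.35 CPM (adjusted p = 2.00e-05, edgeR), and Crabp1, the most abundant at 39.4 CPM with vehicle, was 0.16 higher and not called. The 1.04 of Crabp2 compares with 0.61 for Fabp5, the FABP with the highest value.

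Of 11 further thioesterases 5 were tested, of which 1 rose, 2 fell and 2 were not called, with a median of -0.41. Among all genes tested 23.3% were higher and 22.5% lower. Acot6, in the same cluster on chromosome 12 as Acot1 and Acot2, was the most abundant of them. Acot6 fell from a vehicle mean of 9.42 ± 0.411 CPM to 4.64 ± 0.872 CPM. The log2 fold change of -1.02 (adjusted p = 0.000101, edgeR) stands beside -0.59 for Acot2 and -0.20 for Acot1. Them6 fell by 0.57, and the peroxisomal Acot8 rose by 0.56 ± 0.141 (SE, adjusted p = 0.00641). Acot3, Acot5, Acot10, Acot12, Them5 and Baat were too low to test. Of 7 further acyl-CoA binding proteins, 6 were tested and only Dbil5 was called, with at most 23 counts in any sample (log2 fold change 2.01, adjusted p = 0.0291). Acbd3, the most abundant at 100 ± 3.91 CPM with vehicle, was at 99.0 ± 12.5 CPM with PTH. Dbi and the barely detected Dbil5 were therefore the acyl-CoA binding proteins called higher.

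Larger single changes were found among the enzymes that make acyl-CoA and, among those that use it, in the low-count gene Cpt1b. Of 15 acyl-CoA synthetases tested 5 rose, 4 fell and 6 were not called (median 0.05). Acsl3, which activates long-chain fatty acids at lipid droplets and the endoplasmic reticulum, was at 33.4 ± 0.943 CPM with vehicle and 169 ± 31.6 CPM with PTH and rose by 2.34 ± 0.118 (SE) on the log2 scale (adjusted p = 1.36e-08, edgeR), and Acsf3, a mitochondrial malonyl-CoA synthetase, fell by 0.80. Of 22 genes of mitochondrial fatty acid oxidation 4 rose, 7 fell and 11 were not called (median -0.09). The counts of both lists stand beside 23.3% higher and 22.5% lower among all genes tested. Cpt1b, the muscle-type carnitine palmitoyltransferase, rose by 1.51 from 0.353 CPM (adjusted p = 0.0212, edgeR). Its vehicle samples held only 13 to 26 counts, and its groups overlapped. The more abundant Cpt1a, at 97.5 CPM with vehicle, fell by 0.37 (adjusted p = 0.000726, edgeR). Cpt2 fell by 0.51 (adjusted p = 0.000254, edgeR). Acad11 fell by 0.57, and the trifunctional protein subunit Hadha, the most abundant at 122 CPM with vehicle, was 0.04 higher and not called.

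Several FABPs deliver ligands to PPARs, and Fabp4 is a classical target of PPARγ. Of 8 genes of the PPAR family and its partners 3 rose, 4 fell and 1 was not called (median -0.58), beside 23.3% higher and 22.5% lower among all genes. Pparg was at 16.0 ± 1.42 CPM with vehicle and 5.67 ± 0.573 CPM with PTH and fell without overlap (edgeR log2 fold change -1.50 ± 0.110 SE, adjusted p = 3.64e-07). In the same samples Fabp4 was at 14.8 ± 3.77 and 20.9 ± 5.72 CPM. Ppard, another PPAR gene, rose from 44.5 ± 2.04 to 146 ± 15.9 CPM (SD, n = 4) without overlap. Its log2 fold change was 1.71 (adjusted p = 7.87e-09, edgeR). The coactivators Ppargc1b and Ppargc1a rose by 2.89 ± 0.274 (SE) and 2.09. The shared partners Rxra and Rxrb fell by 0.55 and 0.68, and Ppara fell by 1.11. Vehicle sample 1 was the highest for Fabp4 and the lowest for Pparg, whose vehicle samples spanned 14.7 to 17.9 CPM. Vehicle sample 2 was the highest for Pparg. PTH samples 2 and 3 were the highest PTH samples for both genes. Whether the level of Pparg bears on that of Fabp4 was not tested.

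**Figure D5:**
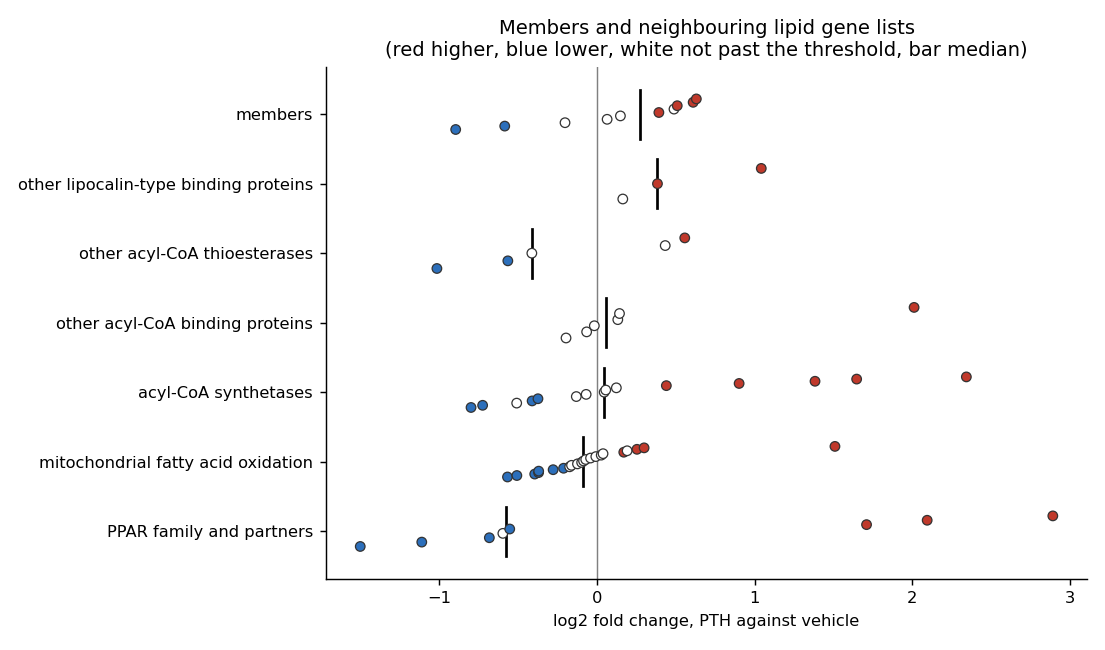
Log2 fold change, PTH against vehicle, of the 10 members and of the tested genes of 6 lists of neighbouring lipid genes, 1 point per gene. Red points were called higher, blue points called lower and white points not called, and the black bar is the median of the row, which is -0.58 for the PPAR family and 0.05 for the acyl-CoA synthetases.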

How the data were processed

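Poly(A) RNA of 8 samples, grouped by their labels as PTH or vehicle (4 each), was sequenced as pairs of 150 bases. HISAT2 alignment (GRCm38) and StringTie2 assembly were done by the authors. They deposited unnormalized counts per gene, which StringTie2's companion script derives from transcript coverage. The annotation version and the read length and strand settings are not given in the sources used here. Entries with no symbol (2, at most 0.0053% of a sample's counts) were left out, and 46650 genes were matched to GENCODE M21.

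Counts were filtered (filterByExpr, minimum count 10, minimum total 15), scaled by TMM and tested by edgeR 4.0.16 in R 4.3.3 with Benjamini-Hochberg adjustment over 16734 genes, threshold 0.05 and no minimum fold change. CPM use TMM-scaled library sizes. Single values were compared by exact permutation of log2(CPM + 0.1) in SciPy 1.17.1. Similar genes (at least 150 bases at 95% identity) were found with blastn 2.17.0. Settings tried otherwise were DESeq2 1.42.0, its size factors, no filter, a replicate block, each sample left out, counts halved, counts summed by symbol or over similar genes, an offset for transcript length (lowess span 0.5), a minimum log2 fold change of 1 and a pseudocount of 1. The edgeR fit, with and without the length offset, and DESeq2 were checked on simulated data. Sequencing depth was 33605610 to 56090654 counts per sample, and intervals cover the spread between samples.

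The members and gene lists were chosen with earlier results of these data known. All 10 members, Tnfsf11 and Pth1r were named, with the largest called rise, the largest called fall and the most abundant gene of each pathway list, the most abundant marker of each marker list, any marker over 10 CPM in a group and genes of near-identical sequence. Them6, Adipoq, Plin1, Cfd, Cidec, Lep, Emcn, Kdr, Myh3, Zcchc17 and genes at 0 or too low to test were named after their values were seen. So were Ppard, Ppargc1a, Ppara, Rxrb, Cpt1a and Cpt2. Some items are not reported here.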

Additional observations from a re-analysis of the deposited data

How the results depend on the processing

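Over 16 settings Fabp5, Dbi, Acot2 and Acot11 stayed called in the same direction, Fabp3 in 15 (not with the offset for transcript length, log2 fold change 0.27), and no member changed sign. Acot13 was called in 6 of 16 and Fabp4 in 4. Members called higher were 5 with DESeq2, 3 without the filter, 2 with the length offset and 0 at a minimum log2 fold change of 1, where members called lower were also 0, because no member changed by that much. At that minimum, genes called higher numbered 1232 and lower 650, and pathway list genes 9 and 3 instead of 16 and 17. Summing near-identical genes made members called lower 3, with Acot1 joined to Acot2. Without the filter Acot13 had an adjusted p of 0.0744.

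Whether the replicate numbers pair the samples is not stated. Deviations of equally numbered samples correlated at -0.0375, -0.032, -0.041 and 0.0275. Samples of unequal number were not compared, so these values cannot exclude a pairing. With the replicate number as a block, 3570 genes were higher and 3432 lower instead of 3907 and 3761, members called higher were 3 and lower 2, pathway list genes were 13 and 16, and Acot13 stood at 0.37 with an adjusted p of 0.0511. Acot1, with 95 to 163 counts per sample, is the member with the fewest counts.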

Other observations

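Markers of other lineages gave values that belong to no comparison of the members. Counts of markers called stand beside 23.3% higher and 22.5% lower among all genes tested. Of 5 chondrocyte markers tested 2 rose, Col2a1 from 226 ± 3.50 to 307 ± 40.1 CPM (SD, n = 4) and Acan from 11.4 ± 1.63 to 23.2 ± 3.998 CPM (an edgeR log2 difference of 1.03, adjusted p = 6.38e-05), and 3 were not called. Of 10 osteoblast markers 3 fell and 7 were not called, and Sp7, a transcription factor of the osteoblast lineage, fell from 103 ± 29.6 to 30.1 ± 3.26 CPM (an edgeR log2 difference of -1.78, adjusted p = 4.40e-06). Runx2 fell by 0.33, and Pth1r is the remaining one that fell. Alpl, Col1a1, Col1a2, Ibsp, Bglap, Spp1 and Sparc were not called, with log2 fold changes from -0.29 for Spp1 to 0.28 for Alpl. Nor were the cartilage genes Col9a1 and Comp (0.04 and -0.02), or the macrophage genes Adgre1, Csf1r, Cd68, Ptprc, C1qa, C1qb and Itgam, which lay between 0.19 for Csf1r and 0.37 for C1qa. Among adipocyte markers Lipe, which encodes hormone-sensitive lipase, rose by 0.38 while Pnpla2, which encodes the triglyceride lipase ATGL, fell by 0.35. Muscle markers were low, with sums of 7.40 to 11.8 CPM with vehicle and 7.54 to 11.2 CPM with PTH. Of 4 tested, Acta1, the most abundant, fell from 5.30 ± 0.841 to 3.10 ± 1.19 CPM, and Myh3 rose from 0.889 ± 0.134 to 1.89 ± 0.527 CPM. Among endothelial markers, Tek fell from 4.87 ± 0.562 to 3.46 ± 0.436 CPM and Kdr rose from 0.692 ± 0.403 to 1.98 ± 0.675 CPM, with 3 others not called.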
